A study of Rattus norvegicus with 15 samples.

Results

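The 10 genes described here encode the transporters by which the hepatocyte moves bile acids, bilirubin conjugates and drugs between blood and bile. They were taken by symbol from the deposited table of 32623 genes, which held all 10 of them. Slc10a1 (the sodium-dependent bile acid carrier NTCP), Slco1a1 and Slco1b2 (organic anion transporters of the OATP family) take up solutes from sinusoidal blood. Abcb11 (the bile salt export pump), Abcb4 (the phosphatidylcholine floppase) and Abcc2 (the conjugate pump MRP2) act at the bile canaliculus. Abcc3 (MRP3), Abcc4 (MRP4) and Slc51a with Slc51b (the 2 subunits of the organic solute transporter) export bile acids and conjugates across the basolateral membrane back to blood.

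Bile acids circulate between intestine and liver, and the hepatocyte keeps their inner concentration low by balancing uptake against canalicular secretion. Nuclear receptors read this concentration: the bile acid receptor FXR (Nr1h4) induces the export pumps and, through the corepressor SHP (Nr0b2), represses uptake, while the xenobiotic receptors PXR (Nr1i2) and CAR (Nr1i3) induce conjugate pumps. In cholestasis the basolateral exporters are known as an overflow route that returns bile acids to the blood.

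RNA was sequenced from whole livers of male Wistar rats with a start weight of 75 to 100 g. The control rats received no treatment. The cirrhosis group inhaled carbon tetrachloride (CCl4), a solvent that injures hepatocytes, and drank phenobarbital at 0.35 g/L for 12 weeks, and the cirrhosis & eplerenone group received the same and, from week 8 on, eplerenone at 100 mg/kg, a blocker of the mineralocorticoid receptor, in 5 g of hazelnut spread a day. Livers were taken 7 to 10 days after the last CCl4, and 4 control, 5 cirrhosis and 5 cirrhosis & eplerenone rats were analysed. Another control, replicate 1, was not analysed here. The sequenced rats were picked by the study from a larger cohort for how well cirrhosis or the treatment had taken. Phenobarbital, itself an inducer of drug transporters, went only to the CCl4-treated rats, so that its share and that of CCl4 cannot be told apart. The animal labels began with 13 or 16 in controls and with 15 or 20 in both CCl4-treated groups. The meaning of these prefixes is not given, and they cannot be told apart from CCl4 treatment.

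Between 16157491 and 21574767 reads were counted per library. Levels are given as FPM, counts per 1000000 counted reads after scaling by TMM, a method that evens out library composition. FPM is not divided by gene length, so that levels are compared between rats and not between genes. Of 14417 genes that passed a filter on low counts, a gene was called (DEG) when the false discovery rate (FDR) lay below 0.05 in both edgeR and DESeq2. Of the 10 transporters, 8 passed the filter, and Slc51a and Slc51b did not. The log2FC values, standard errors (SE) and adjusted p-values below come from the quasi-likelihood test of edgeR, adjusted after Benjamini-Hochberg over all genes tested. The study left cirrhosis replicate 5 and cirrhosis & eplerenone replicate 3 out of one of its own gene selections, and the counts of calls are therefore also given without both. Other rats stood apart too, among them cirrhosis & eplerenone replicate 2, which that set keeps.

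The promoters of the 4 transporters that fell in cirrhosis are shown because these genes changed together. RefSeq (GRCr8) held a promoter for 8 of the 10 genes, and none was matched for Abcb11 and Abcc3. In the 250 bases before the start, both strands were searched for AGGTCA, the half-site of many nuclear receptors, for GTTAAT, a half-site of HNF1, and for TGACNNNGC, the core of the antioxidant response element. AGGTCANTGACCT, an inverted repeat of the half-site that can bind FXR, was searched with up to 2 mismatches, and its matches can overlap those of the half-site. Capitals mark the matches. The windows are chr6:106357945-106358194 (Slc10a1) and chr4:176682028-176682242 (Slco1a1) on the minus strand, and chr4:176282334-176282576 (Slco1b2) and chr1:252613625-252613874 (Abcc2) on the plus strand. Each is printed 5′ to 3′ toward its start, and bases past a further annotated start of the gene are left off for Slco1a1 and Slco1b2. Positions given below are counted from the end of the full 250 bases searched. For Slco1b2 that end lies past the last base printed, so that a count on the printed bases gives smaller positions.
Slc10a1: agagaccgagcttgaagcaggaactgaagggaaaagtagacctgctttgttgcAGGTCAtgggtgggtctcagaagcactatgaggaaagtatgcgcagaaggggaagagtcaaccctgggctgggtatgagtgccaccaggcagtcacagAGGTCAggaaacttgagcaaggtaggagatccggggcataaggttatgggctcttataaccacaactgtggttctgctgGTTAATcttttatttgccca
Slco1a1: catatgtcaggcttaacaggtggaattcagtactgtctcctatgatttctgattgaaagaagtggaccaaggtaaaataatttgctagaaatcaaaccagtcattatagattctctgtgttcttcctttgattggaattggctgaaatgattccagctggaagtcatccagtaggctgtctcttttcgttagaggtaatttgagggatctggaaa
Slco1b2: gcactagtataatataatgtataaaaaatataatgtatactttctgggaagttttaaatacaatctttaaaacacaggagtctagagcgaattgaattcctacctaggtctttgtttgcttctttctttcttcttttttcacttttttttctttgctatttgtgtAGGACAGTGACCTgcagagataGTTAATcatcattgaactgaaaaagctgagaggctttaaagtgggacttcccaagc
Abcc2: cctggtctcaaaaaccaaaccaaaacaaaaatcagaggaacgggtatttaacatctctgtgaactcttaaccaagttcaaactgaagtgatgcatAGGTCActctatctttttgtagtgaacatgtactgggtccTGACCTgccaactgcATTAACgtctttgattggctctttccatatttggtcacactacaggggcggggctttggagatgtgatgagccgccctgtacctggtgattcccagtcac
AGGTCA or its complement occurred in 14.1% of all 33469 promoters and GTTAAT in 6.45%. Slc10a1 held AGGTCA 197 and 99 bases before the start and GTTAAT 20 bases before it. Slco1b2 held the half-site 78 bases before the start, inside AGGACAGTGACCT, a match to the inverted repeat that 1.24% of promoters had, and GTTAAT at 63 bases. Abcc2 held the half-site at 155 and 115 bases and GTTAAT at 100 bases before the start, the latter 2 on the opposite strand. Slco1a1, which fell as well, held none of these letters. Abcb4 and Abcc4, which were tested and not called, held no match. Part of the bases searched for these 2 genes also lay past a further annotated start, so that less of their upstream sequence was covered. Slc51a and Slc51b did not pass the filter and were not tested in the main fit. Slc51b held 1 half-site 132 bases before its start, and Slc51a held no match. The antioxidant core occurred in 10.1% of promoters and in none of the 8.

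All 3 uptake carriers fell in cirrhosis, together with the canalicular conjugate pump Abcc2, and the basolateral exporter Abcc3 rose. Thus 5 of the 8 transporters tested were called between control and cirrhosis, 4 of them lower, where 20.1% of all genes tested were called, 13.4% higher and 6.67% lower. An unadjusted p under 0.05 in edgeR was found for the same 5, and for 37.1% of all genes. The median log2FC was -0.93 over the 8 transporters and -0.01 over all genes tested. Without the 2 rats named above, 7 of the 8 were called, with a background of 34.1%.

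Slc10a1, on chromosome 6, is the main carrier for conjugated bile acids. It was at 540.1, 451, 409 and 376 FPM in control replicates 2 to 5 and at 183, 136, 150.2, 92.2 and 359 FPM in cirrhosis replicates 1 to 5. Every cirrhotic liver lay below every control, but replicate 5 came close to the lowest of them while the other 4 stood well apart. The means were 444 ± 70.9 (SD, n = 4) and 184 ± 103 FPM (SD, n = 5), which edgeR gave as a log2FC of -1.27 (SE 0.40, adjusted p = 0.03638), a 2.41-fold lower level. Without control replicate 2 the adjusted p was 0.08163, and the call held in 6 of 14 fits that omitted a single rat.

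Slco1a1, on chromosome 4, carries bile acids, steroid conjugates and drugs. Control livers had 144, 132, 126 and 152 FPM, and cirrhotic livers 19.9, 57.8, 17.5, 23.4 and 81.1 FPM. The groups were separated by a wide gap, with cirrhosis replicates 1, 3 and 4 lowest. Its log2FC of -1.79 (SE 0.48, edgeR adjusted p = 0.01936) was a 3.46-fold lower level, and it was called in 13 of the 14 fits without 1 rat, the exception being control replicate 5 (adjusted p = 0.05079). Slco1a1 belongs to a family of similar genes, and reads that mapped to several places were counted at each, so that its counts may hold reads of its relatives.

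Slco1b2, also on chromosome 4, is the liver-specific OATP for bilirubin and drugs. It was at 611, 576.3, 731 and 709.8 FPM in controls and at 134, 295, 132, 215 and 362 FPM in cirrhosis. No cirrhotic liver came near the lowest control. The log2FC was -1.53 (SE 0.39, edgeR adjusted p = 0.01532), a 2.89-fold lower level, and the call held in all 14 fits without 1 rat.

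Among the canalicular genes Abcc2, the pump for bilirubin glucuronides on chromosome 1, was at 249, 278, 246 and 306 FPM in controls and at 66.2, 87.3, 50.9, 135 and 109 FPM in cirrhosis. Even the highest cirrhotic liver, replicate 4, had clearly less than any control. The log2FC was -1.59 (SE 0.49, edgeR adjusted p = 0.03441), a 3.0-fold lower level. The call held in 7 of the 14 fits without 1 rat and was lost when any 1 control was left out, with an adjusted p of 0.08222 without control replicate 5. It was also lost when libraries were scaled by total counts (log2FC -1.26, adjusted p = 0.05261).

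Abcb11, on chromosome 3, secretes bile salts against a steep gradient. It was at 411, 554, 445 and 504.02 FPM in controls and at 359, 311, 337, 190.3 and 394 FPM in cirrhosis. The groups did not overlap, as in 6 of the 8 transporters and 20.2% of all genes tested, but the distance between the nearest rats was small. With a log2FC of -0.59 (95% interval -1.22 to 0.05, edgeR adjusted p = 0.1623) Abcb11 was not called. Without cirrhosis replicate 5 and cirrhosis & eplerenone replicate 3 it was (log2FC -0.66, adjusted p = 0.03203).

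Abcb4, on chromosome 4, brings phosphatidylcholine into bile, where it shields the epithelium from bile salts. It was at 117, 156, 195 and 191 FPM in controls and at 163, 228, 283, 357 and 132 FPM in cirrhosis. Cirrhosis replicates 2, 3 and 4 lay above every control and replicates 1 and 5 among them. The log2FC was 0.50 (95% interval -0.10 to 1.10, edgeR adjusted p = 0.2074), and without the same 2 rats 0.67 (adjusted p = 0.04164).

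**Figure D1:**
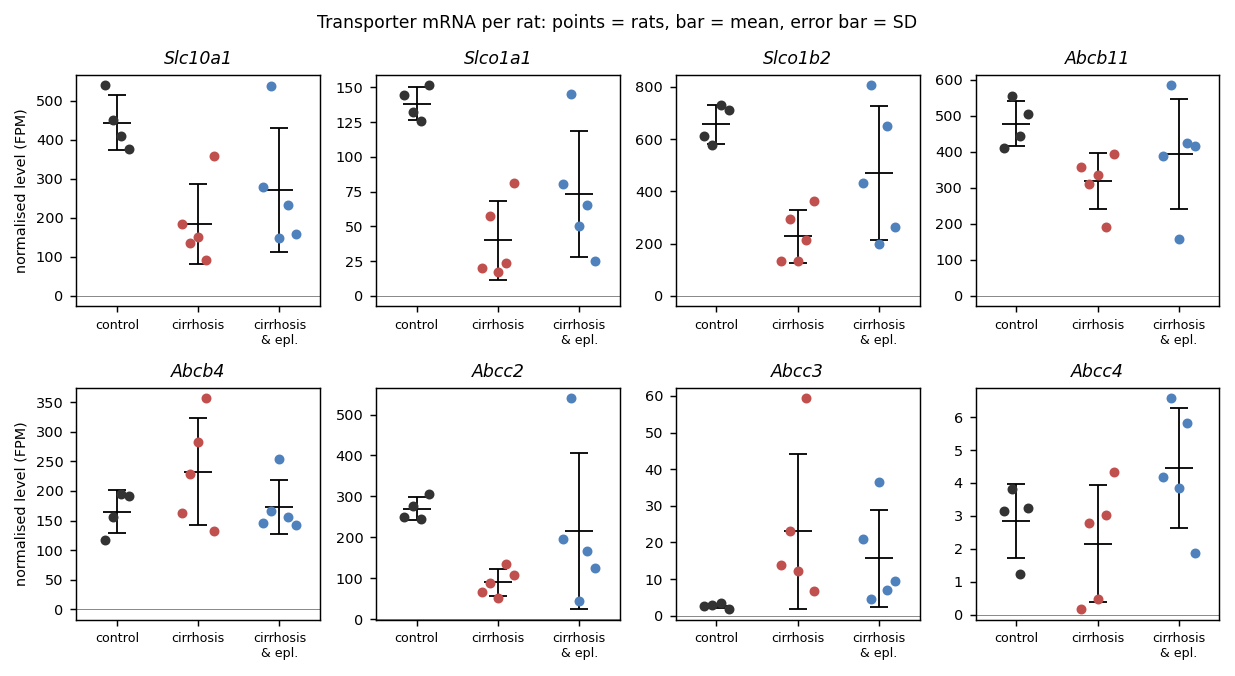
FPM of the 8 transporters that passed the filter, 1 panel a gene, with 1 point a rat, the mean as a horizontal bar and the SD as error bar (n = 4 control, 5 cirrhosis, 5 cirrhosis & eplerenone). Slc10a1, Slco1a1, Slco1b2 and Abcc2 in cirrhosis all lie below control, and Abcc3 lies above it. Cirrhosis & eplerenone replicate 2 lies within or above the control range in the first 4 panels and above it in that of Abcc2, at 539 FPM. Further rats given eplerenone lie within the control range for Slco1b2 and Abcb11.

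Abcc3, on chromosome 10, exports glucuronides and bile acids to the blood. Control livers had 2.53, 2.83, 3.36 and 1.78 FPM, and cirrhotic livers 13.7, 23.1, 12.2, 59.3 and 6.84 FPM. All 5 cirrhotic livers were above all controls, replicate 4 by far and replicate 5 least. The log2FC of 3.13 (SE 0.69, edgeR adjusted p = 0.007634) was an 8.75-fold higher level, and Abcc3 was called in all 14 fits without 1 rat. Cholangiocytes also express Abcc3. All 7 cholangiocyte markers tested were called higher in cirrhosis, as 13.4% of all genes tested were. Their summed level was 14.8 to 24.5 FPM in controls and 47.9 to 148 FPM in cirrhosis. The part of these cells in the level of Abcc3 was not tested. In cirrhosis replicates 1 to 5 the marker sum was 119.8, 148, 119.7, 109 and 47.9 FPM, highest in replicate 2 while Abcc3 was highest in replicate 4, and both were lowest in replicate 5. In cirrhosis & eplerenone replicates 1 to 5 it was 89.3, 47.9, 103, 49.0 and 77.5 FPM, which put the 5 rats in the same order as Abcc3 did.

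Abcc4, on chromosome 15, exports bile acids and cyclic nucleotides. It was at 3.14, 3.82, 1.22 and 3.24 FPM in controls and at 0.166, 2.77, 0.485, 3.03 and 4.34 FPM in cirrhosis. Cirrhosis replicates 1 and 3 lay below every control and the other 3 among or above them, and the log2FC was -0.40 (95% interval -1.78 to 0.98, edgeR adjusted p = 0.667).

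Slc51a and Slc51b, on chromosomes 11 and 8, were near the limit of detection. Slc51a had 0 to 6 counts per control, 0 to 8 per cirrhotic and 0 to 17 per cirrhosis & eplerenone liver, and the highest, in replicate 1 of the last group, came to 0.869 FPM. Slc51b had no count in any control or cirrhosis & eplerenone liver. It had 8 counts in cirrhosis replicate 2, 1 in replicate 4 and 0 in the other 3. A count of 0 allows up to 3 counts, which was 0.121 to 0.191 FPM depending on the library and covers counting error only. No difference between the groups was detectable at this depth. Fitted without a filter, edgeR gave Slc51b an adjusted p of 0.2123 and Slc51a one of 0.8711 between control and cirrhosis.

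In bulk tissue, fewer hepatocytes and less of a transcript per hepatocyte cannot be told apart. The hepatocyte markers Alb, Apoa1, Apoa2, Ttr, Tf, Serpina1, Apob, Cps1 and Ambp summed to 184998 to 211774 FPM in controls, 143124 to 201322 FPM in cirrhosis and 112684 to 206081 FPM in cirrhosis & eplerenone. Of these 9 markers 0 were called between control and cirrhosis by both tools (0 by edgeR, 4 by DESeq2, 4 with an unadjusted p under 0.05 in edgeR), and their log2FC values ranged from -1.69 for Apoa2 to 0.74 for Apoa1, with a median of -0.61. Over the 8 transporters tested they ranged from -1.79 to 3.13. The 2 ranges were not tested against each other. Markers of myofibroblasts were called in 6 of 7, all higher, and those of lymphocytes in 2 of 5, both higher. Those of macrophages and endothelial cells were called in 1 of 6 and 1 of 4, both lower. Over all genes tested, 20.1% were called by both tools, 20.2% by edgeR and 27.8% by DESeq2. An unadjusted p under 0.05 in edgeR was found for 37.1%. The part of cell composition in the levels of the transporters was not tested.

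Eplerenone was given to learn whether blocking the mineralocorticoid receptor shifts the cirrhotic liver. Between cirrhosis and cirrhosis & eplerenone, 0 of the 8 transporters tested were called, by edgeR as well as by DESeq2, against 0.0139% of all genes tested by both tools and 0.513% by DESeq2. An unadjusted p under 0.05 in edgeR was found for 2 of the 8, Slco1b2 and Abcc2, and for 14.4% of all genes. The groups overlapped for all 8, and only 0.964% of all genes tested had groups that did not overlap.

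Abcc2 was at 196, 539, 45.3, 166 and 126 FPM in replicates 1 to 5 of cirrhosis & eplerenone, with a mean of 215 ± 190.2 FPM (SD, n = 5), beside 89.7 ± 33.6 FPM (SD, n = 5) in cirrhosis. Replicate 2 had more than any control and replicate 3 less than any rat of the other groups. The log2FC was 1.26 (95% interval 0.27 to 2.25, edgeR adjusted p = 0.3142), and 0.57 without replicate 2. Slco1b2 was at 432, 807, 198, 650.0 and 265 FPM, with replicate 2 above and replicate 4 within the control range and replicates 3 and 5 within the range of cirrhosis. Its log2FC was 1.05 (95% interval 0.26 to 1.83, edgeR adjusted p = 0.3124).

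Slc10a1 was at 278, 537, 147, 233 and 159 FPM and Slco1a1 at 80.2, 145, 50.6, 65.6 and 24.8 FPM in the same 5 rats. For both genes replicate 2 reached the control range and the other 4 rats stayed below it. The log2FC was 0.56 for Slc10a1 (95% interval -0.24 to 1.35, edgeR adjusted p = 0.4626) and 0.87 for Slco1a1 (95% interval -0.09 to 1.84, edgeR adjusted p = 0.3679).

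Abcb11 was at 389, 585.4, 157, 424 and 417 FPM, again with replicate 2 highest and replicate 3 lowest, and its log2FC was 0.31 (95% interval -0.29 to 0.91, edgeR adjusted p = 0.579). Abcb4 was at 146, 167, 254, 156 and 142 FPM, with replicate 3 alone above the control range, and its log2FC was -0.43 (95% interval -0.99 to 0.13, edgeR adjusted p = 0.4231). Abcc3 was at 20.8, 4.51, 36.5, 6.89 and 9.45 FPM. Replicate 2, the rat with the highest uptake carriers, had the least Abcc3 of the group, and replicate 3 the most. The log2FC of Abcc3 was -0.55 (95% interval -1.77 to 0.66, edgeR adjusted p = 0.6264), and 0.18 without cirrhosis replicate 4. Abcc4 was at 4.19, 6.57, 3.85, 5.81 and 1.86 FPM, with a log2FC of 1.04 (95% interval -0.27 to 2.35, edgeR adjusted p = 0.412).

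The comparison turned on which rats it held. Without cirrhosis replicate 5 and cirrhosis & eplerenone replicate 3, 3 of the 8 transporters were called higher with eplerenone, against a background of 9.15%. These were Slc10a1 (log2FC 1.08, adjusted p = 0.04986), Slco1b2 (1.45, adjusted p = 0.02472) and Abcc2 (1.58, adjusted p = 0.03501) by edgeR's quasi-likelihood test. Of the rats left out, cirrhosis replicate 5 had the highest uptake carriers of its group. Cirrhosis & eplerenone replicate 3 had the lowest FPM of Slc10a1, Slco1b2, Abcb11 and Abcc2 in its group. For Slc10a1 and Slco1b2 this rank depended on the scaling. With scaling by total counts, replicate 5 of that group lay below replicate 3 for Slc10a1 (157 against 206) and Slco1b2 (261 against 278). Replicate 3 stayed lowest for Abcb11 and Abcc2. The treated liver with the highest values of Slc10a1, Slco1b2, Abcb11 and Abcc2, replicate 2, stayed in. With all other rats and without replicate 2, 0 of the 8 were called, against 0.00696% of all genes tested. The full set gave 0 as well, so that this fit cannot show what replicate 2 added to the 3 calls. The smaller set was not fitted without replicate 2.

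The values were also compared within the label prefixes. Among the rats of prefix 15, with 3 cirrhotic and 2 treated livers, the log2FC with eplerenone was 1.39 for Slc10a1, 1.83 for Slco1a1, 1.73 for Slco1b2 and 2.44 for Abcc2. Among those of prefix 20, with 2 cirrhotic and 3 treated livers, it was -0.30, -0.12, 0.38 and -0.11 for the same genes. For Abcb11, Abcb4, Abcc3 and Abcc4 it was 0.54, -0.52, -0.36 and 2.20 within prefix 15 and 0.21, -0.40, -0.89 and 0.08 within prefix 20. In neither set was a transporter called, against 0.607% of all genes tested within prefix 15 and 0 of 14371 within prefix 20. A test of the difference between the prefixes by edgeR, chosen after the values were seen, gave 2.51 for Abcc2 (SE 0.74, adjusted p = 0.3737), 1.65 for Slc10a1 (SE 0.69, adjusted p = 0.3946), 1.92 for Slco1a1 (SE 0.88, adjusted p = 0.4123) and 1.31 for Slco1b2 (SE 0.77, adjusted p = 0.4608). It gave 2.09 for Abcc4 (SE 1.21, adjusted p = 0.4565), 0.51 for Abcc3 (SE 1.31, adjusted p = 0.8633), 0.30 for Abcb11 (SE 0.62, adjusted p = 0.8277) and -0.16 for Abcb4 (SE 0.62, adjusted p = 0.9149). The unadjusted p was under 0.05 for Abcc2 (0.006278) and Slc10a1 (0.0365), and 0 of all 13795 genes tested passed the FDR. Both rats left out above carry prefix 20, so that the prefix and those rats cannot be told apart.

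**Figure D2:**
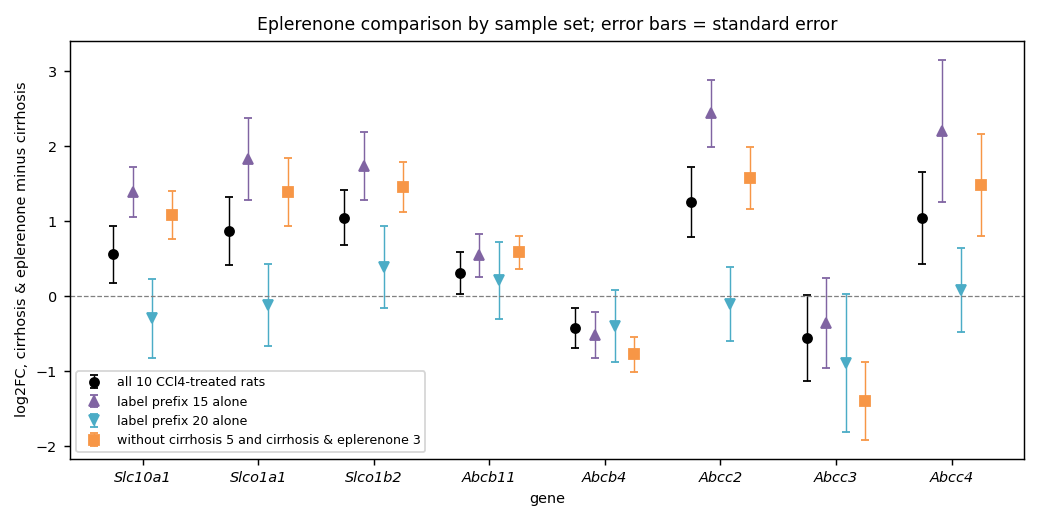
log2FC between cirrhosis and cirrhosis & eplerenone (positive where eplerenone is higher) with its standard error, for 8 transporters in 4 sets of rats. For Slc10a1, Slco1a1, Slco1b2 and Abcc2 the rats of prefix 15 give 1.39 to 2.44 and those of prefix 20 give -0.30 to 0.38, with the set of all 10 rats in between.

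Between control and cirrhosis & eplerenone, which shares its control rats with the first comparison and its treated rats with the second, 1 of the 8 transporters was called, against 5.2% of all genes tested (4.33% higher and 0.874% lower). It was also the only one with an unadjusted p under 0.05 in edgeR, as 20.5% of all genes had. This was Abcc3, whose 5 treated livers all lay above all controls, with a mean of 15.6 ± 13.2 (SD, n = 5) beside 2.63 ± 0.659 FPM (SD, n = 4). The log2FC of Abcc3 was 2.57 (SE 0.68, edgeR adjusted p = 0.03986), a 5.95-fold higher level. The call of Abcc3 held in 6 of the 14 fits without 1 rat and was lost when at least 10 counts were asked of every rat (adjusted p = 0.05076) and without the 2 rats named above (adjusted p = 0.05588). Of the 7 cholangiocyte markers tested, 4 were called higher in this comparison, with summed levels of 47.9 to 103 FPM in the treated rats.

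The other 7 transporters were not called against control. The log2FC was -0.71 for Slc10a1 (95% interval -1.55 to 0.13), -0.92 for Slco1a1 (-1.93 to 0.09), -0.48 for Slco1b2 (-1.30 to 0.34) and -0.33 for Abcc2 (-1.36 to 0.70). It was -0.28 for Abcb11 (-0.91 to 0.36), 0.07 for Abcb4 (-0.53 to 0.66) and 0.64 for Abcc4 (-0.75 to 2.03). Adjusted p-values of edgeR for these 7 ranged from 0.2931 for Slco1a1 to 0.9288 for Abcb4. For the 4 genes that fell in cirrhosis the intervals reach below -1, so that they include a level below 50% of control.

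**Figure D3:**
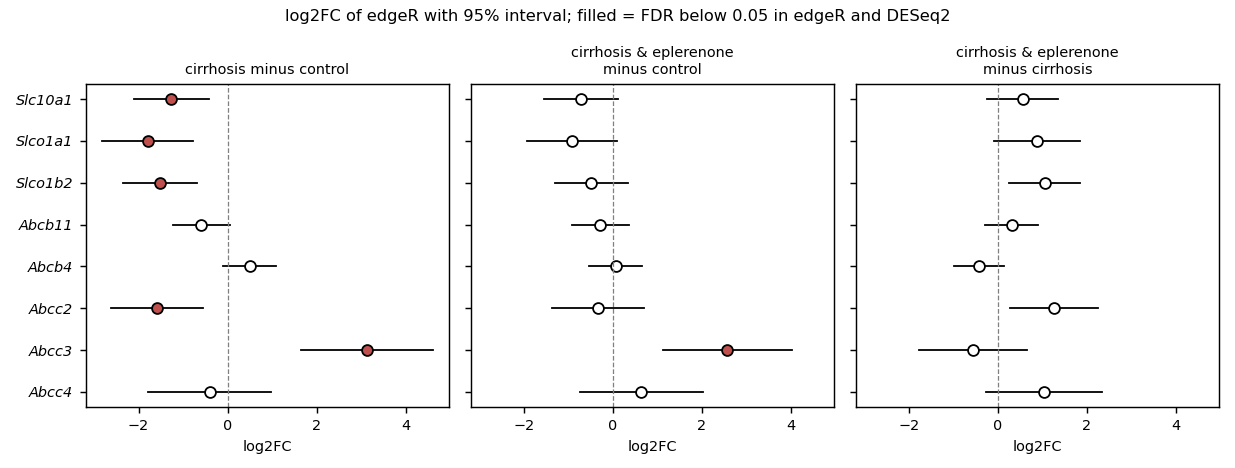
log2FC of edgeR with its 95% interval for 8 transporters in the 3 comparisons, with filled points where the FDR was below 0.05 in both tools. In cirrhosis against control 5 points are filled, against control with eplerenone only Abcc3, and in the right panel none.

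CCl4-treated rats differed more from each other than controls did. The SD was 8.52% of the mean in controls and 70.7% in cirrhosis for Slco1a1, 10.5% and 37.4% for Abcc2, and 11.4% and 44.2% for Slco1b2. With eplerenone it was 61.5%, 88.6% and 54.5% for the same 3 genes. With eplerenone the spread was near that of controls for Abcc4 (41.2% and 39.6%) and Abcb4 (26.7% and 22.0%). The study set aside 1 control that differed from the rest in a principal component analysis, which can narrow the spread of controls. No CCl4-treated rat was set aside for these values. The differences in spread were not tested.

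Levels of Abcc3 and Abcb11 ran in opposite directions from liver to liver. The 2 livers with the most Abcc3, cirrhosis replicate 4 (59.3 FPM) and cirrhosis & eplerenone replicate 3 (36.5 FPM), had the least Abcb11 of all 14 rats (190.3 and 157 FPM). The treated rat with the least Abcc3, replicate 2 (4.51 FPM), had the most Abcb11 of all rats (585.4 FPM). Over the 10 CCl4-treated rats Pearson's r of log2 FPM was -0.89 between Abcb11 and Abcc3 (Spearman's rho -0.90), 0.87 between Slco1a1 and Slco1b2 (rho 0.92) and 0.86 between Slco1b2 and Abcc2 (rho 0.84). These values are a description over rats of 2 groups and 28 pairs of genes, and the rats share their library sizes and their cell composition.

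**Figure D4:**
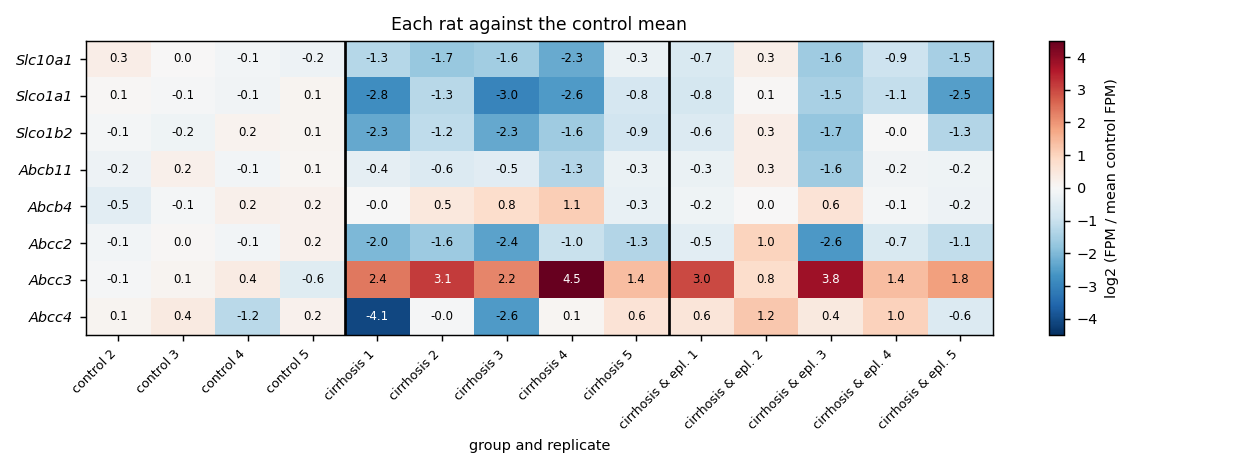
log2 ratio of each rat's FPM to the mean of the controls for 8 transporters, with rats in columns by group and replicate number. Blue rows of uptake carriers and Abcc2 stand beside red cells of Abcc3 in most CCl4-treated rats, and cirrhosis & eplerenone replicate 2 lies above every control for Slco1b2, Abcb11, Abcc2, Abcc3 and Abcc4.

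The genes of most similar pattern over the 14 rats, by Pearson's r of log2 FPM, were Ptprd (0.96) and Adamts13 (0.96) for Slc10a1, Jcad (0.98) and Tmed7 (0.98) for Slco1a1, and Selenoi (0.98) and Npc1 (0.97) for Slco1b2. For Abcb11 they were RGD1564865 (0.96) and Cyp8b1 (0.95), the latter the sterol hydroxylase of cholic acid synthesis, for Abcc2 Acot12 (0.96) and Pdpk1 (0.95), and for Abcb4 Fas (0.86) and Birc3 (0.85). Abcc3 was followed most closely by B4galt6 (0.96) and Ddr1 (0.96), and Abcc4 by Neo1 (0.96) and Wipf2 (0.95).

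The receptors that govern these genes were examined as a list of regulators. Between control and cirrhosis 4 of the 11 tested were called, 3 lower and 1 higher, where 20.1% of all genes tested were called, with a median log2FC of -0.47. The count was 3 to 7 with 1 rat left out, highest without cirrhosis replicate 5, and 2 with scaling by total counts. Nr1i3, the phenobarbital receptor CAR, was at 51.8 to 139 FPM in controls and 14.5 to 58.9 FPM in cirrhosis, overlapping only through cirrhosis replicate 5 (log2FC -1.51, edgeR adjusted p = 0.01235). Nr1i2, the receptor PXR, was at 220.1 to 323 and 126 to 183 FPM (log2FC -0.82, edgeR adjusted p = 0.01133), and Hnf4a, a master factor of hepatocyte genes, at 331 to 661 and 220.5 to 374 FPM (log2FC -0.81, edgeR adjusted p = 0.02899).

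Nr1h4, the bile acid receptor FXR, was at 82.6 to 120.1 FPM in controls and 38.3 to 86.4 FPM in cirrhosis, with replicate 5 again highest. It just missed the call in edgeR (log2FC -0.75, edgeR adjusted p = 0.05179) and passed the FDR in DESeq2 (Wald test, adjusted p = 0.03063). Its target Nr0b2 varied widely within every group, from 10.7 to 79.3 FPM in controls and from 12.9 to 86.5 FPM in cirrhosis (log2FC 0.42, edgeR adjusted p = 0.6875). Vdr, the vitamin D receptor, was called higher at very low levels, with 0 to 2 counts per control and 1 to 26 per cirrhotic liver. Between cirrhosis and cirrhosis & eplerenone 0 of the 11 were called, against 0.0139% of all genes tested. An unadjusted p under 0.05 in edgeR was found for 2 of the 11, and for 14.4% of all genes.

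Of the other uptake transporters 1 of 7 tested was called between control and cirrhosis, Slco2b1, an OATP for steroid sulfates, at 168 to 197 FPM in controls and 69.0 to 127 FPM in cirrhosis (log2FC -1.05, edgeR adjusted p = 0.02187). The median log2FC of the 7 was -0.71, and 1 of 7 is below the 20.1% of all genes. The count was 0 without control replicate 3 or 5 or cirrhosis replicate 3 or 4, 3 without cirrhosis replicate 5, and 4 without the 2 rats that the study left out. Of the other canalicular genes 2 of 7 were called, both lower. These were both subunits of the sterol exporter, Abcg5 (4.96 to 31.6 FPM against 0.476 to 4.77 FPM, log2FC -3.10, edgeR adjusted p = 0.0178) and Abcg8 (3.66 to 20.7 FPM against 0 to 1.06 FPM, log2FC -4.88, edgeR adjusted p = 0.004606). With control replicate 2 or 3 left out 1 was called, and with at least 10 counts asked of every rat 0. The other basolateral exporters had 2 of 5 called, Abcc6 (log2FC -0.82, edgeR adjusted p = 0.02384) and Abcc10 (log2FC -0.66, edgeR adjusted p = 0.04063), both lower. These calls were not stable, as 0 were made without control replicate 2 or 4 or cirrhosis replicate 1 or 4, and 0 to 2 under the other alternatives.

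Of 8 genes for anchoring and trafficking of canalicular pumps, 2 were called between control and cirrhosis, a share near the 20.1% of all genes, and 1 or 2 with 1 rat left out. Rdx, encoding radixin, which ties Abcc2 to actin, was at 13.9 to 38.5 FPM in controls and 2.10 to 18.0 FPM in cirrhosis (log2FC -1.69, edgeR adjusted p = 0.04117). Ezr, encoding ezrin, its relative in biliary epithelium, was at 4.91 to 6.45 and 11.8 to 30.5 FPM (log2FC 1.77, edgeR adjusted p = 0.002041). Ezr was the 1 gene of these lists called between control and cirrhosis & eplerenone (log2FC 1.45, edgeR adjusted p = 0.01366). That was 1 of the 8 anchoring genes, where 5.2% of all genes tested were called. The other uptake, canalicular and basolateral lists had 0 of 7, 0 of 7 and 0 of 5 called. The regulators had 0 of 11 and the genes of phenobarbital response 0 of 6. In every list 0 genes were called between cirrhosis and cirrhosis & eplerenone, against 0.0139% of all genes tested. Without the 2 rats that the study left out, 2 other uptake transporters and 3 regulators were called, against 9.15% of all genes.

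Genes known to respond to phenobarbital were read because Abcc2 and Abcc3 can respond to it too. Of the 6 tested 1 was called between control and cirrhosis, Ephx1, the microsomal epoxide hydrolase (log2FC 1.02, edgeR adjusted p = 0.04897), which is below the share of 20.1% over all genes. This call was lost in 10 of the 14 fits without 1 rat, among them those without any 1 control. Cyp2b1, the classical phenobarbital-induced enzyme, was at 1.40 to 5.07 FPM in controls, at 37.9, 45.2, 14.4, 1067 and 17.3 FPM in cirrhosis and at 737, 33.7, 53.7, 22.6 and 19.2 FPM with eplerenone. Every CCl4-treated liver lay above every control, and 1 liver of each treated group stood far above the rest. It passed the FDR in edgeR (log2FC 6.06, adjusted p = 0.0223), while DESeq2 gave no adjusted p, so that it was not called. Cyp2b1 has near-identical relatives that may share its reads. Cirrhosis replicate 4 held both the most Cyp2b1 and the most Abcc3. In cirrhosis & eplerenone the most Cyp2b1 was in replicate 1 and the most Abcc3 in replicate 3. The part of phenobarbital in the level of Abcc3 was not tested.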

How the data were processed

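Liver RNA was poly(A) enriched and read from both ends. Per the labels the authors mapped the reads to rn6 with HISAT2 2.1.0 and counted them over exons with featureCounts, and the counts per gene that they deposited are not normalised. Reads mapping to several places were counted at each, which can mix similar genes, and strand use is not given in the sources used here. One of 15 labelled samples had no column that could be used and was not analysed here. No pair of replicates agreed within sampling noise.

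Counts were filtered with filterByExpr (smallest count 10), scaled by TMM and fitted for 3 groups in 1 model in R 4.3.3 with edgeR 4.0.16 (quasi-likelihood test). DESeq2 1.42.0 (Wald test) was run on the same genes. A gene was called at an FDR below 0.05 in both. The SE is the log2FC divided by the square root of F. Replicates are different rats. The tests were checked on simulated counts. Correlations used log2 FPM with a prior count of 2. Alternatives covered scaling, filters, tool, samples, label prefix and replicate number.

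All 10 transporters are reported, and from the other lists the genes called in any comparison plus Nr1h4, Nr0b2, Nr1i3 and Cyp2b1, and the 2 protein coding genes of most similar pattern per transporter. The members and lists were chosen with earlier results of these data known. Slco1a5, Abcb1a, Abcb1b, Klb and Cyp3a23/3a1 matched no symbol. Promoters came from RefSeq (GRCr8), another build than that of the counts.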

Additional observations from a re-analysis of the deposited data

Results flagged for a closer look

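Among 24 sets of values (8 transporters in 3 groups), 1 rat stood apart by Dixon's criterion at 95%. Abcb4 in cirrhosis & eplerenone replicate 3 was at 254 FPM, and its gap to the next rat was 0.781 of the range of the group, above the critical value of 0.71 for 5 samples. Chance flags about 1 in 20 groups. The same rat had the most Abcc3 and the least Abcb11 of its group and the largest TMM factor of all libraries (1.40).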

How the results depend on the processing

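The number of transporters called between control and cirrhosis was 2 to 5 when 1 rat was left out, lowest without control replicate 5, and 4 to 7 under the other alternatives. It was 3 without control replicate 2, 3 or 4 or without cirrhosis replicate 1, 2 or 3. Between cirrhosis and cirrhosis & eplerenone it was 0 under all alternatives except the set without cirrhosis replicate 5 and cirrhosis & eplerenone replicate 3, where it was 3. Between control and cirrhosis & eplerenone it was 0 or 1 with 1 rat left out, and 0 with that set, with at least 10 counts in every rat and with the replicate number as a block. The study describes no pairing of its rats. Deviations of same-numbered rats from their group means had correlations of -0.33 to 0.19. These were not tested and cannot settle whether the numbers pair any rats. With the block 4 transporters were called between control and cirrhosis, Slc10a1 being lost (log2FC -1.35, adjusted p = 0.05894 by edgeR), and Abcc3 was lost between control and cirrhosis & eplerenone (adjusted p = 0.08852). Scaling by total counts moved the median log2FC of all genes from -0.01 to 0.28 between control and cirrhosis and from 0.01 to 0.32 between control and cirrhosis & eplerenone, and turned no transporter's direction.

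Directions turned for genes that were not called. Within prefix 20 the log2FC with eplerenone was -0.30 for Slc10a1, -0.12 for Slco1a1 and -0.11 for Abcc2. For Abcc3 it ranged from -1.18 to 0.18 with 1 rat left out, turning without cirrhosis replicate 4. For Abcb4 between control and cirrhosis & eplerenone it was -0.11 without the same 2 rats, -0.07 without control replicate 2 and -0.11 without cirrhosis & eplerenone replicate 3, with a range of -0.11 to 0.16 over the fits without 1 rat. The causes were not tested. At this depth no difference in Slc51a or Slc51b could be detected.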
